A study of Rattus norvegicus with 21 samples.

Results

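Aif1, Itgam, Cd68 and Cd74, genes of microglia and of antigen presentation, were followed in rat cerebral cortex and hippocampus after repeated exposure to the thin air of high altitude. The set consists of 4 Ensembl gene IDs out of 30560 in the deposited table, ENSRNOG00000000853 (Aif1), ENSRNOG00000019728 (Itgam), ENSRNOG00000037563 (Cd68) and ENSRNOG00000018735 (Cd74). All 4 had reads in every library, and all 4 passed the minimum mean of 10 normalized counts that a gene needed to be tested. They were listed by name and not by a value measured in these contrasts, though with earlier results of these data known. The deposited table holds no gene names, so the pairing of name and ID comes from the list that defines the set.

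All rats were wild-type male Sprague Dawley animals, 4 weeks old, kept for 2 weeks to acclimate and weighing about 200 g. Exposed rats were taken in a low-pressure chamber to the equivalent of 28000 ft, held there for 5 min, and this cycle was run 6 times at 3-day intervals. Brains were sampled at 24 h or 48 h from the end of the final cycle. Controls breathed normal oxygen. The study used 12 rats, of which 8 were exposed and 1 was lost, so the 4 control rats gave the control libraries of both tissues. Each tissue gave 4 control, 3 libraries at 24 h and 3 at 48 h, 20 in all, and 1 further library with contradictory tissue labels was not used. No group used here had the pressure change without low oxygen, so both parts of the treatment cannot be told apart.

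Microglia are the resident macrophages of the brain, and they survey the tissue, take up debris and change their gene expression when it is disturbed. Aif1 encodes the calcium-binding, actin-associated protein Iba1, the usual immunostaining marker of microglia, and Itgam encodes the integrin chain CD11b, which pairs with Cd18 to form complement receptor 3. Cd68 encodes a lysosomal glycoprotein of phagocytic cells. Cd74 encodes the invariant chain, which escorts newly made MHC class II molecules and occupies their peptide groove until they reach the endosome; in the healthy brain it is found mainly in border macrophages and few microglia. In bulk tissue, fewer cells of a type and less RNA per cell cannot be told apart.

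Promoter sequences were matched by symbol for Itgam, Cd68 and Cd74, and they are shown because the members differ in the elements that class II genes and myeloid genes are known to use. Each is the 250 bases before the annotated start of the gene, 5′ to 3′ on the strand of the gene, from RefSeq on build GRCr8. Capitals mark GAGGAA, the core bound by the myeloid factor PU.1, CCAAT, the box bound by NF-Y, and TAGCAAC, a stretch of the class II X box, each searched on both strands (GAGGAA on the other strand reads TTCCTC).
Itgam, chr1:192089342-192089591, + strand: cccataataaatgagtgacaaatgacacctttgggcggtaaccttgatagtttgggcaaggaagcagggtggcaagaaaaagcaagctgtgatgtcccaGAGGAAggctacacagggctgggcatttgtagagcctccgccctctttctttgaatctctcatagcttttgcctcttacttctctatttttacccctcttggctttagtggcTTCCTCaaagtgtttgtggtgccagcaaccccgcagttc
Cd68, chr10:54882442-54882691, - strand: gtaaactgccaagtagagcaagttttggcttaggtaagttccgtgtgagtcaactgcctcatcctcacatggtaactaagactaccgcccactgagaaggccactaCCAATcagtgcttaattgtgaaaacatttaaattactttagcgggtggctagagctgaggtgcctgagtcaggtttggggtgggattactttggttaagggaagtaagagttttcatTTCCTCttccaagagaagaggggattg
Cd74, chr18:56526956-56527205, + strand: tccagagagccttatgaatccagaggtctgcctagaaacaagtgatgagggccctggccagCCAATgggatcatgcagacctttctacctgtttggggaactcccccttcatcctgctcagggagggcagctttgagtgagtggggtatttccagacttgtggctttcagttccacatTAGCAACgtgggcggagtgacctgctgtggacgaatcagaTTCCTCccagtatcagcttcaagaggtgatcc
GAGGAA occurred in all 3, with 2 matches in Itgam, and its match in Cd74 began 32 bases before the start. Of 33469 rat promoters of the same length, 23.3% held the PU.1 core. The letters CCAAT occurred in Cd68 and Cd74 and in 34.0% of the promoters. TAGCAAC occurred only in Cd74 among the 3, 72 bases before the start, and in 2.88% of the promoters. No 2 matches overlapped. A match describes letters and not a bound site.

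Reads in genes numbered 11214566 to 19304803 in 19 of the 20 libraries and 4654096 in hippocampus control 1. One read there was worth 4.32 normalized counts, against 0.595 to 1.12 in the others. This worth is set by the size factor that each library's reads were divided by, and need not follow depth alone. On a scale where 0 is the cortex and 1 the hippocampus, read from genes at least 4-fold apart between the tissues, 4 libraries lay between the ends: cortex control 3 at 0.41, cortex 24 h replicate 3 at 0.26, hippocampus control 2 at 0.30 and hippocampus 24 h replicate 2 at 0.46. Positions ran from -0.10 to 0.11 in the remaining 8 libraries of cortex and from 0.84 to 1.24 in the remaining 8 of hippocampus. Their part in the results below was not tested beyond the values given without them.

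No member passed the threshold (adjusted p 0.05, limma) in any of the 6 comparisons between exposure groups within a tissue, in both tests of a difference in response between the tissues, or between the tissues. In each of the 6 comparisons and both response tests, 0% of all genes passed, so the 0 of 4 members says nothing particular to them. An unadjusted p under 0.05 was reached by 25 to 1675 genes in the 6 comparisons, edgeR called 0 genes in each and DESeq2 1 to 145, none of them a member. Between hippocampus and cortex, averaged over control, 24 h and 48 h, 21.8% of 15017 genes passed and 0 of 4 members did. Tests between the tissues treated the libraries as separate samples although the regions share animals, and which libraries come from 1 rat is not in the labels. Over the 4 members, the median log2 change was -0.44 in cortex at 24 h against control, where 1 member was above 0, and -0.34 at 48 h, where none was. The medians of all genes tested there were -0.02 and 0.01. That none was above 0 at 48 h rested on cortex control 3. Without it Cd68 stood at 0.089 and Cd74 at 0.22, while Aif1 and Itgam stayed below 0. In hippocampus the member medians were 0.22 at 24 h and 0.18 at 48 h, with 3 of 4 above 0 each time. All genes had medians of 0.03 and 0.02. These member medians rested on hippocampus control 1: without it they were -0.02 and -0.10, with 2 of 4 members above 0 each time.

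**Figure D1:**
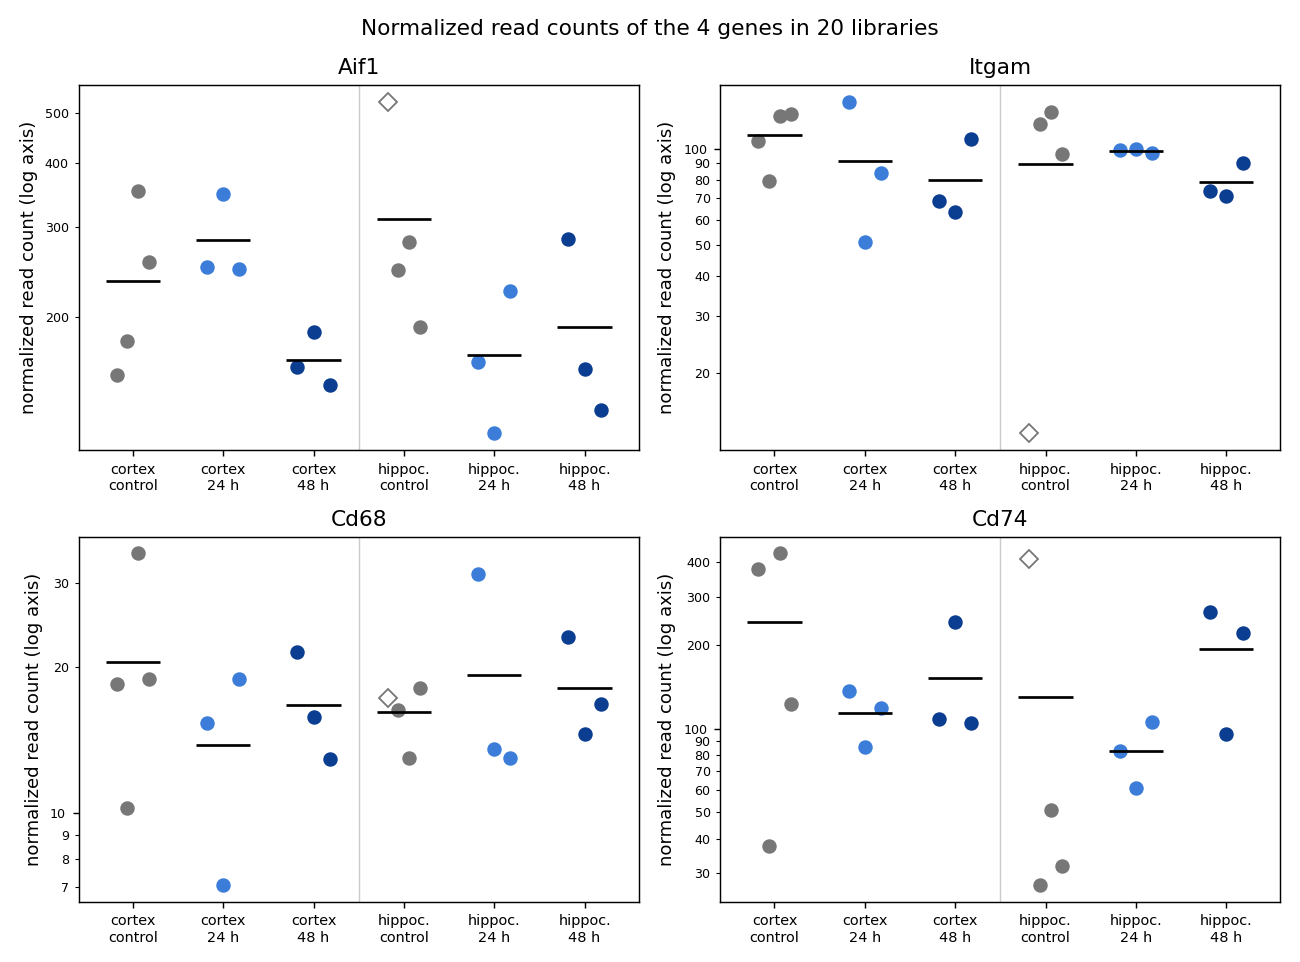
Normalized read counts of Aif1, Itgam, Cd68 and Cd74 (log axis) by group, 1 point per library, with the group mean as a bar; the open diamond is hippocampus control 1. Cd74 spanned 27.2 to 431 normalized counts, and on this scale the open diamond was the highest library for Aif1 and the lowest for Itgam. As a share of reads in genes, cortex control 3 was higher for Aif1, at 593 of 19304803 against 122 of 4654096.

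Cd74 in the hippocampus was described with and without control 1, since that library set its control mean. Hippocampus controls stood at 410.0, 27.2, 50.9 and 31.8 normalized counts, the 24 h libraries at 83.0, 60.8 and 105.8, and the 48 h libraries at 263.7, 95.4 and 221.4. Every exposed library was above 3 of the controls and below control 1. As a share of reads in genes, control 1 was almost level with 48 h replicate 1, at 95 of 4654096 against 240 of 11874931. The size of the gap between control 1 and the exposed libraries thus depended on the scaling. The mean was 129.96 ± 187 (SD, n = 4) in controls, 83.2 ± 22.5 (n = 3) at 24 h and 193.5 ± 87.5 (n = 3) at 48 h. At 48 h against control the log2 difference was 1.42 (95% interval -0.43 to 3.27, limma adjusted p = 0.928), larger in size than that of 96.0% of 15028 genes. It did not exceed the spread of the controls. edgeR and DESeq2 gave smaller values with all libraries, 0.73 and 0.64, and the means were 1.49-fold apart.

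Control 1, the shallow library, held 95 Cd74 reads. The exact Poisson 95% interval of its value was 332 to 501 normalized counts, which covers counting error only. Without it the hippocampus controls averaged 36.6 ± 12.6 normalized counts (SD, n = 3). Among these, control 2 held the lowest value, 27.2, and lay at 0.30 on the tissue scale. Replicate 2 of the 24 h group lay at 0.46. The 48 h mean was then 5.28-fold and the 24 h mean 2.27-fold that of the controls, and neither group overlapped them. Control 1 was left out because it set the control mean, and it was the only control above any exposed library. Leaving it out thus fixed the lack of overlap in advance and widened the fold differences. The shares of all genes and the p-values that follow do not correct for that choice. At 48 h, 4.11% of 14883 genes were higher with no overlap in the same comparison, and at 24 h 3.55% were. The log2 difference at 48 h without control 1 was 2.30 (95% interval 1.35 to 3.24). The methods differed on that value: the adjusted p was 0.9998 with limma, 0.990 with edgeR (log2 2.40) and 0.00151 with DESeq2 (log2 2.40), where Cd74 was among 3 genes called, 0.0137% of 21977; limma called 0%. At 24 h the log2 difference moved from 0.30 (-1.55 to 2.16) to 1.18 (0.23 to 2.13) without control 1, adjusted p = 0.9998. With all libraries, edgeR and DESeq2 put it below 0, at -0.49 and -0.58.

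In cortex Cd74 stood at 377, 37.5, 431 and 123 normalized counts in the controls, 137, 85.7 and 119 at 24 h, and 109, 243 and 105.1 at 48 h. The controls held both the lowest and the 2 highest libraries of the tissue, and all 6 exposed libraries lay between them. Their mean was 242 ± 191 (SD, n = 4), against 114 ± 26.0 (n = 3) and 152 ± 78.7 (n = 3). The log2 difference from control was -0.57 (-2.22 to 1.08, adjusted p = 0.861) at 24 h and -0.24 (-1.89 to 1.41, adjusted p = 0.960) at 48 h, limma. At 24 h edgeR and DESeq2 both gave -1.07, and the limma value was -0.17, -1.27 and -0.11 without cortex control 1, 2 and 3. At 48 h edgeR and DESeq2 both gave -0.66, and limma 0.16, -0.94 and 0.22 without the same controls. The hippocampal change at 48 h minus the cortical one was 1.66 (-0.84 to 4.16, adjusted p = 0.998, limma), and 2.53 without hippocampus control 1 (adjusted p = 0.905). Between the tissues, averaged over groups, hippocampus was lower by a log2 difference of -0.48 (-1.53 to 0.56, adjusted p = 0.533, limma). DESeq2 without hippocampus control 1 gave -0.94 with adjusted p = 0.0328, where 25% of 23269 genes were called.

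**Figure D2:**
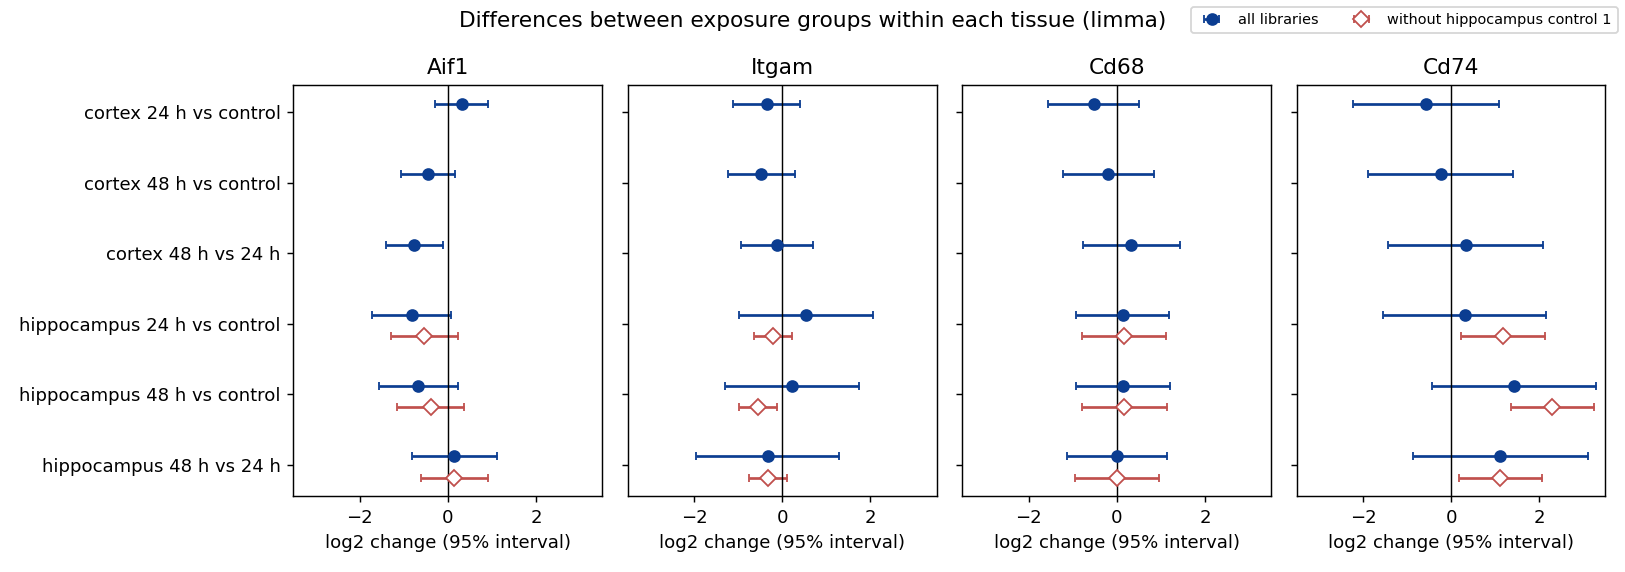
Log2 differences between exposure groups within a tissue, with 95% intervals from limma, for all libraries (filled circles) and, in hippocampus, without hippocampus control 1 (open diamonds). For Cd74 at 48 h the estimate moved from 1.42 to 2.30, and for Itgam at 48 h from 0.21 to -0.55.

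Aif1 in cortex was compared between the 2 times. The 24 h libraries stood at 251, 348 and 248 normalized counts and the 48 h libraries at 160.3, 187 and 148, so that every 24 h library was above every 48 h library. Of all 14783 genes, 10.1% were lower at 48 h with no overlap. The mean was 282 ± 57.0 (SD, n = 3) at 24 h and 165 ± 20.2 (n = 3) at 48 h, 1.71-fold apart. The log2 difference was -0.76 (95% interval -1.41 to -0.11, limma adjusted p = 0.394) and did not pass the threshold. Without cortex 24 h replicate 3, the highest and the one between the tissue ends, it was -0.60 (-1.32 to 0.12). The 4 cortex controls, at 154, 179.8, 353 and 256, covered the whole range of the 48 h to 24 h libraries apart from the lowest 48 h library.

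In hippocampus, Aif1 controls stood at 526, 247, 280.4 and 192 normalized counts, the 24 h libraries at 164, 119 and 225, and the 48 h libraries at 285, 159 and 132. Of the 6 exposed libraries, 4 were below every control. The log2 difference from control was -0.82 (-1.72 to 0.08, adjusted p = 0.851) at 24 h and -0.67 (-1.57 to 0.23, adjusted p = 0.928) at 48 h, limma. The highest control, 526, was again control 1, and without it the differences were -0.53 and -0.38. At 24 h the hippocampal change minus the cortical change was -1.13 (-2.20 to -0.07, limma adjusted p = 0.856), and -0.85 (-1.79 to 0.10) without that library. Its estimate was below 0 in each of 34 alternative settings, from -1.36 to -0.77, but these settings refit the same libraries. With all libraries it was larger in size than that of 88.9% of 15017 genes. An unadjusted limma p under 0.05 was reached there by 3.48% of genes.

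Itgam was closest among libraries in the hippocampus at 24 h, with 99.2, 99.5 and 96.8 normalized counts. The variance of these 3 values was 0.0211 times what read counting alone gives on average. At 48 h the values were 73.6, 71.2 and 90.6, each below all 24 h values; 1.7% of 15028 genes were lower in that comparison with no overlap. The log2 difference was -0.33 (-1.96 to 1.29, limma adjusted p = 1). Hippocampus controls stood at 12.9, 119.5, 130.5 and 96.3, and the first of these was 3 reads in control 1, with an exact Poisson 95% interval of 2.67 to 37.8 normalized counts. With that library the 48 h difference from control was 0.21 (-1.31 to 1.74, adjusted p = 0.959). Without it the difference was -0.55 with adjusted p = 0.9998, limma, all 48 h libraries lay below the other 3 controls, and 4.08% of 14883 genes did the same. Control 1 held the only control value below the 48 h libraries, so leaving it out produced that separation. Cortex Itgam ranged from 79.2 to 129 in controls, 51.2 to 140.3 at 24 h and 63.3 to 107 at 48 h, with overlap throughout. Its log2 differences from control in cortex were -0.35 at 24 h and -0.47 at 48 h, with adjusted p of 0.805 and 0.885 in limma.

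Cd68 was counted from few reads, 4 to 58 per library. Group means ran from 13.8 ± 6.08 normalized counts (SD, n = 3) in cortex at 24 h to 20.5 ± 10.1 (n = 4) in cortex controls. The hippocampus groups lay between these, at 16.2 ± 2.27 (n = 4) in controls, 19.3 ± 10.4 (n = 3) at 24 h and 18.1 ± 4.42 (n = 3) at 48 h. All groups overlapped within each tissue. The widest log2 difference from control was -0.52 (-1.55 to 0.50, limma adjusted p = 0.787) in cortex at 24 h, an interval that holds both a fall of more than 1 and a rise of 0.50 on that scale. In 5 of the 6 groups the variance among libraries was 1.11 to 6.78 times that of read counting, and in hippocampus controls it was 0.327 times.

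Ordered by group mean over all 20 libraries, Aif1 ran from 165 in cortex at 48 h to 311 in hippocampus controls, a ratio of 1.89. Itgam spanned a ratio of 1.40 from hippocampus at 48 h to cortex controls, and Cd68 one of 1.49. Cd74 spanned a ratio of 2.91, from hippocampus at 24 h to cortex controls. Of the 20 gaps between neighbours in these orders, 19 were smaller than the larger SD of the pair. The exception was Cd74 between cortex and hippocampus at 24 h, at 114 and 83.2. The order rested on hippocampus control 1. Without it hippocampus controls were the lowest group for Cd74, at 36.6 and a ratio of 6.61, and the highest for Itgam, at 115 and a ratio of 1.47. Cortex at 24 h was then the highest for Aif1, with a ratio of 1.71, and 18 of the 20 gaps were smaller than the larger SD, the added exception being Cd74 between hippocampus at 24 h and hippocampus controls.

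Pooled over the 6 groups, Cd74 had the widest spread among libraries of 1 group. Its pooled within-group SD was 1.20 on the log2 scale, above that of 91.8% of the 15017 genes tested and of 97.3% of the 10847 genes whose mean reached 100. The median gene had 0.471. In cortex alone Cd74 had 1.14, above 96.1% of genes. With all libraries the controls spread most, with an SD of 1.63 in cortex and 1.79 in hippocampus, against 0.68 and 0.78 at 48 h. In hippocampus that rested on control 1. The other controls there ran from 27.2 to 50.9 normalized counts, and the 48 h libraries from 95.4 to 263.7. At 24 h the Cd74 SD was 0.34 in cortex, below 0.72 for Itgam and 0.69 for Cd68. In hippocampus it was 0.40, below 0.68 for Cd68 and 0.46 for Aif1. The other pooled SDs were 0.79 for Itgam, 0.52 for Cd68 and 0.48 for Aif1. Without hippocampus control 1, Itgam dropped to 0.38 and Cd74 to 0.92, which was above 91.4% of genes.

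**Figure D3:**
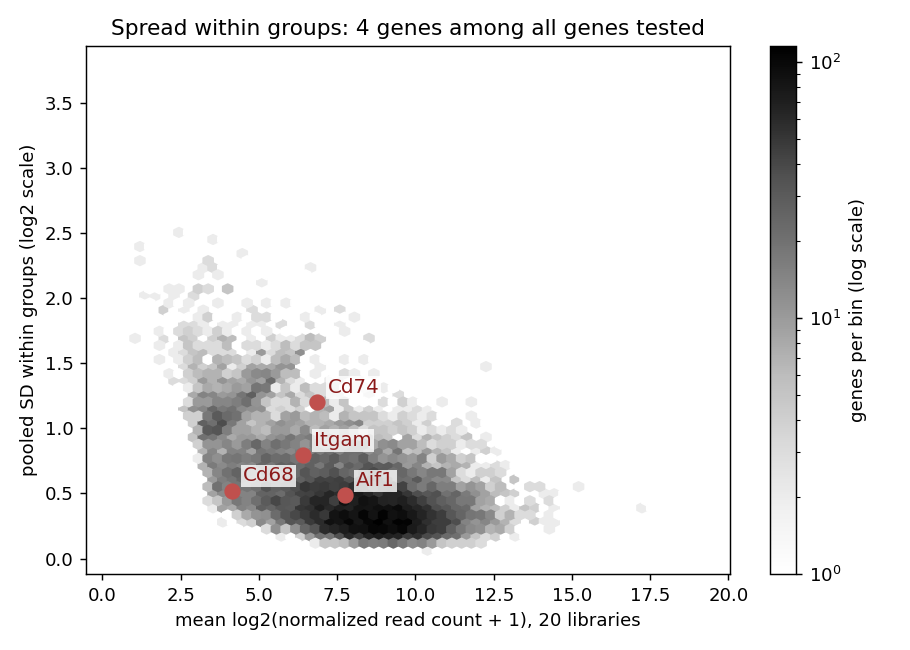
Pooled within-group SD (log2 scale) against mean log2(normalized read count + 1) over 20 libraries, for all genes tested (grey bins, log shading) and the 4 genes (red). Cd74 lay at an SD of 1.20, above Itgam at 0.79, Cd68 at 0.52 and Aif1 at 0.48.

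No member was the nearest gene of another across the libraries. Over 20 libraries, which share depth and dissection within each, Cd68 was the member most like Cd74 (Pearson r 0.413, rho 0.480), at rank 913 of 15016 genes by r. Aif1 was at rank 2871 and Itgam at rank 13110. Without hippocampus control 1 the ranks were 641 for Cd68, 5318 for Aif1 and 8756 for Itgam, and with group means also subtracted 642, 2094 and 2466. Itgam thus moved up without that library, and further with the group means also subtracted. With that library kept, subtracting group means left Itgam at rank 12300. These are descriptions.

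Within a tissue, 12 pairs were compared over 10 libraries each with a two-sided permutation test. Itgam and Cd74 in hippocampus gave r = -0.709 (permutation p = 0.00272, adjusted p = 0.0326) and rho = -0.770 (adjusted p = 0.150). Leaving out the 2 libraries farthest in Itgam gave r = -0.751. Without hippocampus control 1 alone r was -0.664 (exact permutation p = 0.0489, adjusted p = 0.293), and with group means subtracted as well it was 0.404. The relation therefore did not hold within groups once that library was out. Cd68 and Cd74 in cortex gave r = 0.690 (permutation p = 0.0278, adjusted p = 0.167), rho = 0.624 (adjusted p = 0.363) and r = 0.579 without the 2 libraries farthest in Cd68. Without cortex control 3 alone r was 0.529 (exact permutation p = 0.149, adjusted p = 0.596). Leaving out the 2 libraries then farthest in Cd68 as well gave r = 0.050. The other 10 pairs had adjusted p of 0.302 or more for r.

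The gene whose pattern was most like that of Cd74 was ENSRNOG00000032844, for which the files give no name and which was picked after its values were seen. Pearson r was 0.946 over 20 libraries, 0.945 without hippocampus control 1 and 0.941 with group means subtracted. It stood at 128 normalized counts in cortex controls 1 and 3 and at 94.9 in hippocampus control 1, the 3 libraries highest in Cd74, and at 5.11 and 2.72 in cortex control 2 and hippocampus control 4. Its hippocampus 48 h mean was 50.5 ± 33.6 (SD, n = 3), against 22.2 ± 10.9 (n = 3) at 24 h. Hippocampus control 1, high in Cd74, was also high in this gene, but it was among the libraries used to pick the gene. The pick was the same when that library was left out. Cortex controls 1 and 3 took part in every pick.

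**Figure D4:**
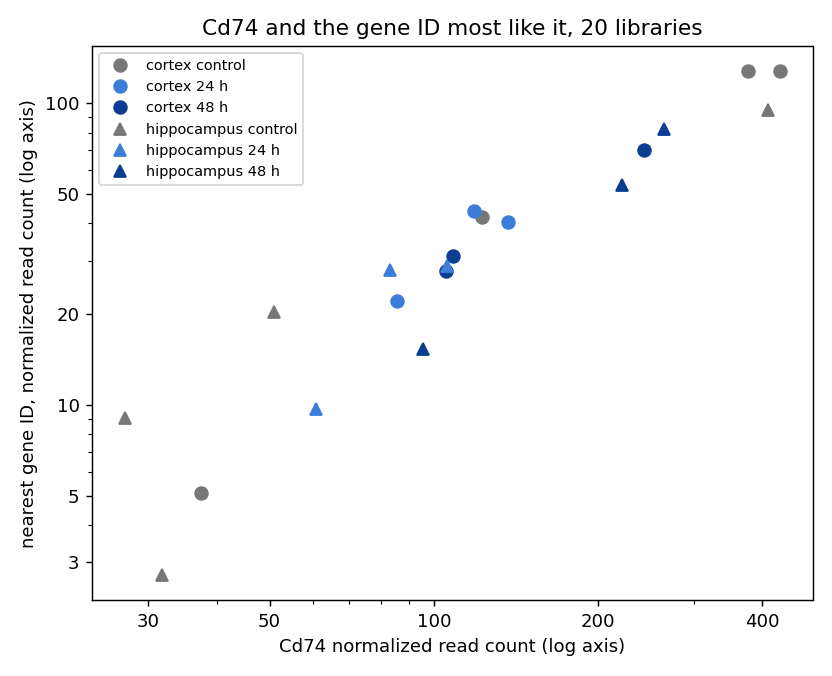
Cd74 against the gene ID most like it, ENSRNOG00000032844, in normalized read counts (both log axes), 1 point per library, circles for cortex and triangles for hippocampus. The points rise together over the range of Cd74 from 27.2 to 431, with r = 0.946 on the log2 scale. They scatter at the low end, where Cd74 of 27.2, 31.8 and 37.5 went with 9.05, 2.72 and 5.11.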

How the data were processed

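RNA was sequenced from stranded mRNA libraries of cortex and hippocampus, per the labels' protocols. The tools were fastp 0.20.0, HISAT2 2.1.0 and featureCounts 2.0.1, per the submitters' processing notes. For genome build, annotation and strand setting: not given in the sources used here. What the authors deposited is a signal, each library's gene read counts over that library's size factor, called normalized counts here. Reads were recovered by dividing by the smallest value above 0 of each of 21 columns (100% whole within 0.001). All columns matched a sample.

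The tests used log2 of the deposited value plus 1, in limma 3.58.1 under R 4.3.3 (intensity trend, two-sided, Benjamini-Hochberg over all genes with a mean of at least 10), 1 fit per tissue, and 1 of both tissues for tissue and response contrasts. edgeR 4.0.16 and DESeq2 1.42.0 on recovered reads were alternatives. So were other pseudocounts, no filter, TMM and quantile scaling, no trend, library weights, 1 fit of all libraries, a replicate block, leaving out each library, and leaving out 5 libraries together (hippocampus control 1 and the 4 between the tissue ends). Scripts were tested on simulated data. Permutation p-values of correlations, scaling to total reads and the edgeR and DESeq2 fits without hippocampus control 1 were added after seeing the data. The members and lists were chosen with earlier results of these data known.

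The 4 members are named whatever their values, and for likeness the gene with the highest r. Marker and pathway lists were not applied, because the reference table of 47357 rat genes (GRCr8) pairs 0 Ensembl IDs; the tissue labels were thus not checked against named markers. Intervals from reads cover counting error only.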

Additional observations from a re-analysis of the deposited data

Results flagged for a closer look

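In 12 tests of the groups of 4 libraries, 4 had 1 library whose gap to the next passed Dixon's 95% critical value. By chance about 1 in 20 independent groups would. The tests took several measures of the same control groups, and most of those past the value were of hippocampus control 1. They were not independent, so their number cannot be set against that rate. Hippocampus control 1 had 4654096 reads in genes and 15134 genes with reads, both far below the other 3 hippocampus controls. Its Cd74 was 409.97 normalized counts, against 27.2 to 50.9 in those 3. Cortex control 3 had 19688 genes with reads, more than the other cortex controls, and it also had the highest Cd74 of all libraries, 431 normalized counts. Whether depth or dissection takes part in these values was not tested.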

How the results depend on the processing

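Of 976 alternative member values, 2 passed adjusted p 0.05, both Cd74 with DESeq2 without hippocampus control 1 (at 48 h and between the tissues), and 68 changed direction. None of those 68 had passed the threshold, and the cause was not tested. Aif1 in cortex (48 h against 24 h) and Cd74 in hippocampus at 48 h kept their direction in 23 and 25 settings. This was not particular to them. Other member values that never changed direction included Aif1 in hippocampus at 24 h and 48 h and Itgam in cortex at 48 h.

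Genes called numbered 41 in cortex at 24 h, 2 at 48 h and 145 at 48 h against 24 h with DESeq2, and 2, 3 and 1 in hippocampus, against 0 each with limma. Library weights called 1 gene in cortex at 48 h, 1335 at 48 h against 24 h and 7742 between the tissues, against 3269. Without the 5 libraries that stood apart, 5 were called in cortex at 48 h against 24 h and 6812 between the tissues. Without hippocampus control 1, edgeR called 5170 between the tissues and DESeq2 5809, with 5 in hippocampus at 24 h, 3 at 48 h and 1 for the response difference at 48 h. Leaving out 1 library at a time gave 2559 to 4883 between the tissues.

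Log2 differences of members changed direction as follows. With a pseudocount of 5 they were Cd68 -0.0048 for hippocampus at 48 h against 24 h. With TMM scaling they were Cd68 -0.00012 for hippocampus at 48 h against 24 h. With quantile normalization they were Cd68 -0.0095 for hippocampus at 24 h. With edgeR they were Itgam -0.23 for hippocampus at 48 h, Cd68 -0.094 for hippocampus at 48 h against 24 h and Cd74 -0.49 for hippocampus at 24 h. With DESeq2 they were Itgam -0.24 for hippocampus at 48 h, Cd68 -0.082 for hippocampus at 48 h against 24 h and Cd74 -0.58 for hippocampus at 24 h. With library weights they were Itgam 0.090 for cortex at 24 h, -0.19 for hippocampus at 24 h, -0.57 for hippocampus at 48 h, 0.036 for the tissue difference and -0.26 for the response difference at 24 h, Cd68 0.0050 for cortex at 48 h and -0.15 for hippocampus at 48 h against 24 h and Cd74 0.61 for cortex at 48 h. Without the 5 libraries that stood apart they were Itgam 0.079 for cortex at 24 h, -0.19 for hippocampus at 24 h, -0.52 for hippocampus at 48 h, -0.27 for the response difference at 24 h and -0.12 for the response difference at 48 h, Cd68 0.14 for cortex at 24 h, 0.089 for cortex at 48 h, -0.053 for cortex at 48 h against 24 h, -0.20 for hippocampus at 24 h, -0.076 for the tissue difference and -0.34 for the response difference at 24 h and Cd74 0.079 for cortex at 24 h and 0.22 for cortex at 48 h. With edgeR without hippocampus control 1 they were Aif1 0.19 for the response difference at 48 h and Itgam -0.23 for hippocampus at 24 h, -0.56 for hippocampus at 48 h, 0.065 for the tissue difference and -0.094 for the response difference at 48 h. With DESeq2 without hippocampus control 1 they were Aif1 0.19 for the response difference at 48 h and Itgam -0.23 for hippocampus at 24 h, -0.56 for hippocampus at 48 h, 0.053 for the tissue difference and -0.089 for the response difference at 48 h.

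The replicate block took the number within an exposure group as a term in the fits of both tissues. In the fits of a single tissue it took the number alone, across exposure groups, although equal numbers there name different rats. With the block, 2579 genes were called between the tissues and 0 elsewhere. The values that changed direction all came from the fit of hippocampus alone. They were Aif1 -0.18, Itgam 0.24 and Cd68 -0.13 at 48 h against 24 h. No member was called. The deviations of same-numbered libraries of the tissues gave no sign of pairing: r ran from -0.29 to 0.14 over 10 pairs, 3 were over 0.1, and 3 of 10 cortex libraries were nearest their own number. The tissues share animals, and these values do not show which libraries share one.

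Leaving out 1 library at a time, the values that crossed 0 were these. Aif1 ran from -0.18 to 0.38 for hippocampus at 48 h against 24 h and -0.55 to 0.060 for the response difference at 48 h. Itgam ran from -0.71 to 0.0036 for cortex at 24 h, -0.48 to 0.24 for cortex at 48 h against 24 h, -0.22 to 0.86 for hippocampus at 24 h, -0.55 to 0.53 for hippocampus at 48 h, -0.27 to 0.10 for the tissue difference and -0.074 to 1.00 for the response difference at 48 h. Cd68 ran from -0.053 to 0.60 for cortex at 48 h against 24 h, -0.46 to 0.089 for cortex at 48 h, -0.26 to 0.34 for hippocampus at 24 h, -0.20 to 0.40 for hippocampus at 48 h against 24 h, -0.036 to 0.28 for hippocampus at 48 h and -0.020 to 0.20 for the tissue difference. Cd74 ran from -0.064 to 0.54 for cortex at 48 h against 24 h, -0.94 to 0.22 for cortex at 48 h and -0.11 to 1.18 for hippocampus at 24 h.

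Without cortex control 3, cortex r was -0.163 for Aif1 and Itgam, -0.414 for Aif1 and Cd68 and -0.214 for Aif1 and Cd74. Without hippocampus control 1, hippocampus r was 0.250 for Aif1 and Itgam and -0.108 for Aif1 and Cd74. Scaling to total reads moved the median of all genes by -0.11 in cortex at 24 h, 0.13 and 0.18 in hippocampus at 24 h and 48 h, and 0.24 and 0.20 in the response differences. No member changed direction under that scaling. Depth limits Cd68 throughout and hippocampus control 1, where 1 read was worth 4.32 normalized counts.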

Other observations

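Cd74 of libraries with the same number in both tissues was high together in control 1 (377 normalized counts in cortex, 410.0 in hippocampus) and low together in control 2 (37.5 and 27.2). In control 3 it was 431 in cortex and 50.9 in hippocampus, and in control 4 it was 123 and 31.8. At 48 h the same-numbered values were 109 and 263.7 for replicate 1, 243 and 95.4 for replicate 2, and 105.1 and 221.4 for replicate 3. Replicate 2 was thus the highest in cortex and the lowest in hippocampus, while replicate 1 was above replicate 3 in both tissues. At 24 h they were 137 and 83.0, 85.7 and 60.8, and 119 and 105.8 for replicates 2, 3 and 4. Whether equal numbers mean 1 rat is not in the labels.

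Aif1 was at 526 normalized counts in hippocampus control 1 and at 154 in cortex control 1, the highest hippocampus and the lowest cortex control.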
